A study of Mus musculus with 6 samples.

Results

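The T helper lineage transcription factors were examined in Tregs from the BM of mice with chronic myeloid leukemia (CML) and of naive mice. The 9 genes Tbx21, Gata3, Rora, Bcl6, Ahr, Maf, Eomes, Runx1 and Runx3 were chosen by name from the 36930 features in the expression tables, and each was present in every table. Libraries came from 3 CML mice and 3 naive mice, which all carried the Foxp3-DTR-GFP genotype and were labelled as 8 weeks old. CML was induced by intravenous injection of BCR-ABL1-GFP-transduced LSKs, an immature fraction of BM cells, into syngeneic recipients of that genotype that were not irradiated, and naive mice were of the same strain. The Foxp3 locus drove the diphtheria toxin receptor and GFP in all 6 mice, the retrovirus brought GFP into the leukemia cells of the CML mice as well, and these recipients kept their own hematopoiesis. Tregs were purified by FACS, and values are given as RPKM, which are reads scaled to the length of the coding sequence and to the depth of the library.

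CD4+ T cells that meet different pathogens take on helper programs, each set up by a transcription factor: T-bet (Tbx21) for type 1 responses, GATA3 for type 2, the ROR receptors for type 17 and BCL6 for follicular help. Tregs, which are defined by Foxp3, can turn on the same factors at lower levels while they remain suppressive, and T-bet, GATA3 and c-MAF are each known to mark Tregs that adapt to a matching immune response. RUNX proteins cooperate with several of these factors and with Foxp3 itself.

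The depth of the libraries limits what follows. The values gave an estimate of 829181 reads for CML replicate 2, between 2286190 and 7613827 for the other 2 CML libraries, and between 5187987 and 9751911 for the naive libraries. In CML replicate 2 the 10 highest features took up 50.7% of all values, against 28.5% to 31.3% elsewhere, and the results that turned on this library are also given without it. Foxp3 was high in every library, between 299 and 468 RPKM in CML and between 297 and 367 RPKM in naive Tregs, and the T cell gene Cd3e lay between 299 and 453 RPKM.

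Of the 9 factors, 8 reached a mean of 1 RPKM over all libraries and entered the test across 13923 genes, and Eomes did not. None of the 8 passed an adjusted p of 0.05 with a fold of at least 1.5 (limma with Benjamini-Hochberg adjustment), a threshold that 0.172% of all genes tested passed, 0.0431% as higher and 0.129% as lower. At an unadjusted p under 0.05 with the same fold, 2 of the 8 passed, Tbx21 and Maf, both higher in CML, compared with 8.55% of all genes, 2.61% as higher and 5.94% as lower. The balance between directions over all genes depended on the scaling, with 4.48% higher and 4.24% lower after quantile normalization, which left the count of factors at 2, both higher. For 2 of the 8 tested factors the 2 groups of libraries were fully apart, Tbx21 as higher and Runx1 as lower in CML. Over all genes tested this held for 17.1%, 4.84% as higher and 12.2% as lower. Eomes, which is outside that share because it was not tested, was also apart, as lower in CML, on few reads. Tbx21 and Maf are also in the list of genes that the study drew from these same libraries, so their direction here is not independent of that list. The study names DESeq2, an FDR below 0.05 and a fold of at least 1.5 for its list. Its call of both genes therefore differs from the adjusted result here. The fit here passed 24 genes at its adjusted threshold, far fewer than that list holds.

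**Figure D1:**
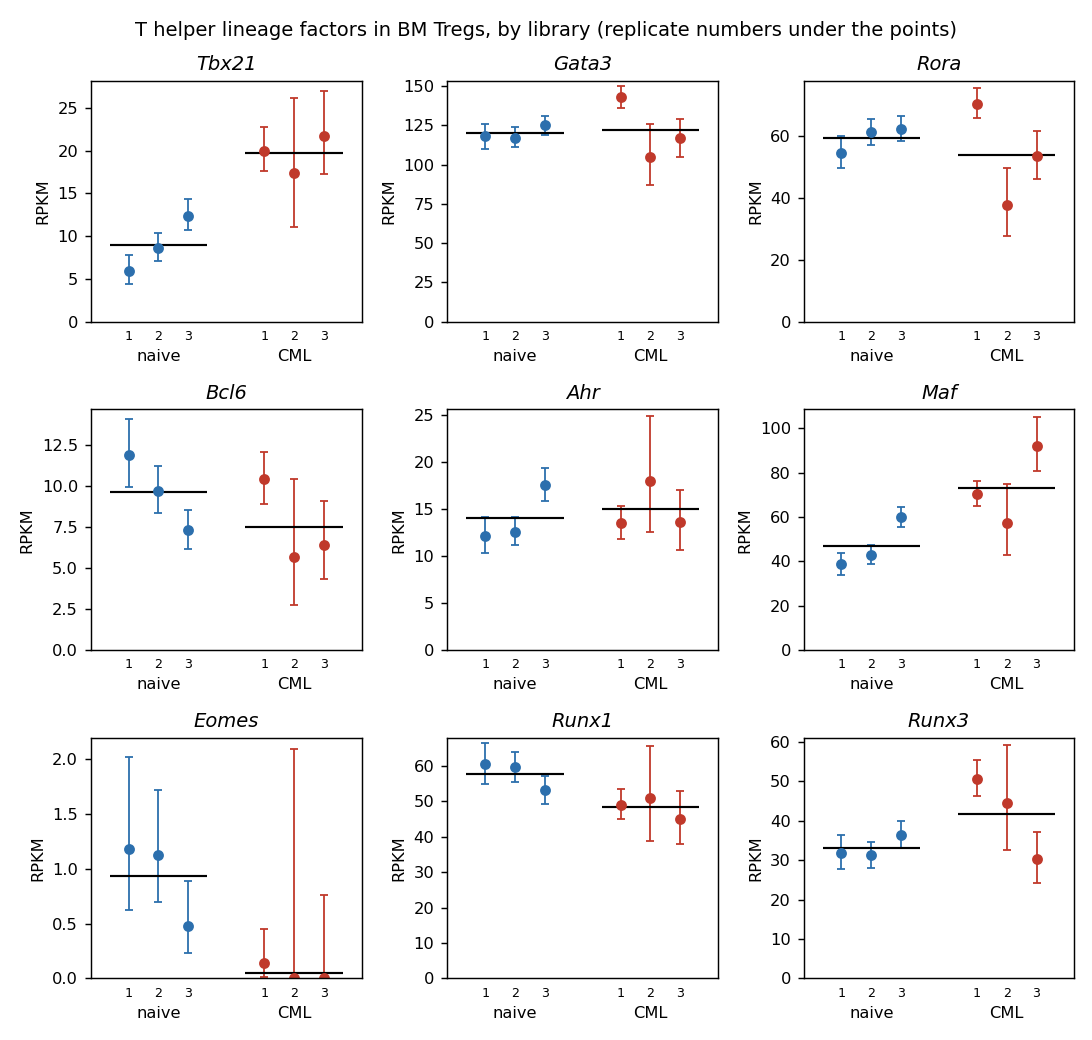
RPKM of the 9 factors (vertical axes, linear from 0) in each naive and CML library (horizontal axis, replicate numbers under the points). Vertical bars are 95% intervals for counting error only, and horizontal lines are group means of 3 libraries. The 3 CML points of Tbx21 lie above the 3 naive points, those of Runx1 and Eomes lie below, and CML replicate 2 has the widest bars.

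The sequences before the starts of Tbx21 and Eomes are shown because this pair of T-box paralogs had separate groups in opposite directions, those of Eomes on few reads. A link between these sequences and the levels was not tested. Both are the 250 bases before the start in RefSeq (GRCm38.p6), read 5′ to 3′ on the strand of the gene. Capitals mark the GC box GGGCGG and the CCAAT box, searched on both strands (in reverse the CCAAT box reads ATTGG), which occurred in 35.7% and 37.4% of 32851 promoter windows of 300 bases. The Tbx21 stretch lies on the minus strand at chr11:97115332-97115581 and the Eomes stretch on the plus strand at chr9:118477939-118478188.
Tbx21: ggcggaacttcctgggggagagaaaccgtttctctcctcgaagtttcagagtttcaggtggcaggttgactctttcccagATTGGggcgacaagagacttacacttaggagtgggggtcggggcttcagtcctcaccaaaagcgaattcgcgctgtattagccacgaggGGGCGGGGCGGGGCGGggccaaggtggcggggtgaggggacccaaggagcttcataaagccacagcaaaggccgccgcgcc
Eomes: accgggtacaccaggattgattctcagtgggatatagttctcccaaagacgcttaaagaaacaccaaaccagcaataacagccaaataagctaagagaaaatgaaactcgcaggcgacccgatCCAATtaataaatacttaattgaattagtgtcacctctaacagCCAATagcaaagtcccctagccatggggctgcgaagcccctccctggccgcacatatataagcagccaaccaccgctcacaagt
The Tbx21 stretch held 3 overlapping GC boxes and 1 CCAAT box at a G and C content of 60.8%. The Eomes stretch held 0 GC boxes and 2 CCAAT boxes at 46.4%. Neither window of 300 bases held any of 7 further motifs on either strand, which says only that these letters are not in those windows. The motif of T-box factors, GGTGTG, occurred in 19% of all windows, and among the 9 factors in that of Gata3. The motif of GATA factors, AGATAA, occurred in 11.2% of windows and the ROR motif, AGGTCA, in 16.3%, and neither was in a window of the 9 factors. The AHR motif, GCGTG, occurred in 32.4% of windows and the MAF motif, TGCTGA, in 19.5%, each in 2 windows of the factors. The STAT motif, TTCNNNGAA, occurred in 8.3% of windows and in both windows of Bcl6, and the RUNX motif is described with Runx1 and Runx3.

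Tbx21 encodes T-bet, the factor of type 1 helper cells, and lies on the minus strand at chr11:97098071-97115331 (GRCm38). It was at 20, 17.4 and 21.7 RPKM in CML replicates 1, 2 and 3 and at 5.93, 8.59 and 12.4 RPKM in naive replicates 1, 2 and 3. Each CML library was above each naive library, and the CML mean of 19.7 ± 2.16 RPKM (SD, n = 3) was 2.2 times the naive mean of 8.98 ± 3.27 RPKM (SD, n = 3). The log2 fold change of RPKM + 1 was 1.10 (SE 0.34, 95% interval 0.32 to 1.88), which ranked 381 among the 13923 genes ordered from the largest increase. It passed the unadjusted threshold and missed the adjusted one (limma p = 0.0114, adjusted p = 0.346, exact permutation test p = 0.1). In a pool of cells, more cells with T-bet and more Tbx21 RNA in each cell cannot be told apart.

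The reads behind these values set how firmly each library speaks. The Tbx21 values stood for 243, 23 and 79 reads in CML replicates 1, 2 and 3 and for 49, 120 and 193 reads in naive replicates 1, 2 and 3. The counting interval of CML replicate 2, from 11 to 26.1 RPKM, overlapped that of naive replicate 3, from 10.7 to 14.3 RPKM, whereas the intervals of CML replicates 1 and 3 lay above those of all 3 naive libraries. Such intervals account for the counting of reads alone, since reads copied during amplification carried no identifier of their molecule.

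Eomes, the paralog of Tbx21 that is best known from cytotoxic and memory T cells and natural killer (NK) cells, lies at chr9:118478212-118486132 on the plus strand. It was at 0.144, 0 and 0 RPKM in CML replicates 1, 2 and 3 and at 1.18, 1.13 and 0.483 RPKM in naive replicates 1, 2 and 3. The CML libraries were all below the naive libraries, but these are levels of few reads. The naive values stood for 13, 21 and 10 reads and that of CML replicate 1 for about 2 reads. With a floor of 3 reads, a count of 0 allows up to 1.70 RPKM in CML replicate 2, above every naive value, and up to 0.618 RPKM in CML replicate 3, above that of naive replicate 3, and the upper 95% counting limits of these zeros were 2.09 and 0.76 RPKM. Summed over libraries, 2 of 10729198 reads in CML and 44 of 23711135 reads in naive Tregs lay on Eomes, a ratio of 0.1 with a 95% counting interval from 0.0118 to 0.385. Eomes did not pass the filter on low values. Without that filter its log2 fold change was -0.86 (limma, p = 0.0055, adjusted p = 0.302), and the exact permutation test gave p = 0.1, the smallest that 3 libraries against 3 allow.

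Maf encodes c-MAF, a basic leucine zipper factor that drives Il10 and Il4 in several helper lineages, and lies at chr8:115682942-115707794 on the minus strand. It was at 70.6, 57.4 and 92.0 RPKM in CML replicates 1, 2 and 3 and at 38.6, 43.0 and 59.9 RPKM in naive replicates 1, 2 and 3. The groups met at their edges, since CML replicate 2, with 53 reads, was just below naive replicate 3, with 650 reads. The mean was 73.3 ± 17.4 RPKM in CML and 47.2 ± 11.2 RPKM in naive Tregs (SD, n = 3 each), a log2 fold change of 0.62 (SE 0.25, 95% interval 0.05 to 1.2). Maf passed the unadjusted threshold (limma p = 0.0367, adjusted p = 0.487, exact permutation test p = 0.2). It did not pass it in every alternative fit: 13 of the 19 kept it past an unadjusted p of 0.05 and the fold, whereas all 19 kept Tbx21 there.

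Gata3, the factor of type 2 helper cells that also stabilizes Tregs in tissues, was the highest of the 9 in all 6 libraries (chr2:9857078-9890034, minus strand). It was at 143, 105 and 117 RPKM in CML replicates 1, 2 and 3 and at 118, 117 and 125 RPKM in naive replicates 1, 2 and 3. The groups overlapped around almost the same mean, 122 ± 19.3 and 120 ± 4.50 RPKM (SD, n = 3 each). The log2 fold change was 0.007 with a 95% interval from -0.38 to 0.39 (limma, adjusted p = 0.991), so differences within that interval in either direction are not excluded.

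Rora encodes RORα, a nuclear receptor that takes part in type 17 programs and is also expressed in skin Tregs and type 2 innate lymphoid cells (chr9:68653786-69388246, plus strand). It was at 70.4, 37.8 and 53.5 RPKM in CML replicates 1, 2 and 3 and at 54.6, 61.2 and 62.3 RPKM in naive replicates 1, 2 and 3. CML libraries lay on both sides of the naive ones. The log2 fold change of -0.18 (95% interval -0.75 to 0.39, limma adjusted p = 0.82) equalled the median of all genes tested, -0.18, and without CML replicate 2 it was 0.05.

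Bcl6, a repressor that directs follicular helper T cells and, in Tregs, follicular regulatory cells, was the lowest of the 8 tested factors in CML (chr16:23965052-23988852, minus strand). It was at 10.4, 5.68 and 6.38 RPKM in CML replicates 1, 2 and 3 and at 11.9, 9.71 and 7.29 RPKM in naive replicates 1, 2 and 3. The groups overlapped, and the value of CML replicate 2 rested on 10 reads. The log2 fold change was -0.34 (95% interval -1.23 to 0.54, limma adjusted p = 0.772), the widest interval of the 8. It was -0.58 without CML replicate 1, -0.19 without CML replicate 2 or naive replicate 1, -0.51 without naive replicate 3 and -0.05 with library weights or on recovered reads.

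Ahr encodes the aryl hydrocarbon receptor, which senses ligands from diet, microbes and tryptophan and takes part in type 17 and Treg programs (chr12:35497974-35535038, minus strand). It was at 13.5, 18.0 and 13.6 RPKM in CML replicates 1, 2 and 3 and at 12.1, 12.6 and 17.6 RPKM in naive replicates 1, 2 and 3. In each group 1 library stood above the other two, and the groups overlapped. The log2 fold change was 0.09 (95% interval -0.59 to 0.77, limma adjusted p = 0.936), and without CML replicate 2 it was -0.04.

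Runx1 and Runx3 encode DNA-binding partners of CBFβ. RUNX1 binds Foxp3 and is needed for Treg function, and RUNX3 acts with T-bet at Ifng and Il4 and directs the CD8 lineage. Runx1 (chr16:92601466-92826149, minus strand) was at 49.0, 51.0 and 45 RPKM in CML replicates 1, 2 and 3 and at 60.6, 59.6 and 53.2 RPKM in naive replicates 1, 2 and 3. Every CML library was below every naive library, with means of 48.3 ± 3.08 and 57.8 ± 4 RPKM (SD, n = 3 each). The log2 fold change was -0.25 (95% interval -0.65 to 0.14, limma p = 0.177, adjusted p = 0.655, exact permutation test p = 0.1), close to the median of all genes, and 12.2% of all genes tested had non-overlapping groups in that direction. Runx3 (chr4:135120652-135177990, plus strand) was at 50.7, 44.6 and 30.3 RPKM in CML replicates 1, 2 and 3 and at 31.8, 31.3 and 36.4 RPKM in naive replicates 1, 2 and 3. CML replicate 3 was the lowest of all 6 libraries while CML replicates 1 and 2 were the highest, and the log2 fold change was 0.30 (95% interval -0.26 to 0.86, limma adjusted p = 0.70). It was 0.15 without CML replicate 1 and 0.51 without CML replicate 3 (limma adjusted p = 0.811 and 0.414).

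The distal promoters of Runx1 and Runx3 are shown because they held 2 matches each to the RUNX motif TGTGGT, which occurred on either strand in 16.8% of the 32851 windows. The stretches of 30 bases around the matches are read 5′ to 3′ on the strand of each gene, with the matches, here as the reverse complement of the motif, in capitals, and that of the paralog Runx2 is set beside them. They lie at chr16:92826025-92826054 for Runx1, chr4:135120503-135120532 for Runx3 and chr17:44814583-44814612 for Runx2 (RefSeq, GRCm38.p6).
Runx1: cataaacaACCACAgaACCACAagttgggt
Runx3: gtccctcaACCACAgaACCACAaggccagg
Runx2: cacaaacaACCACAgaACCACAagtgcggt
In all 3 genes the 2 matches were separated by the same 2 bases. The pair of matches with this spacer was found in 4 of the 32851 windows, a search made after the sequences were seen. These were the windows of Runx1, Runx2 and Runx3 and that of Gm16225, which overlaps the Runx3 window on the other strand. In relation to the start, the pair began at base 29 in Runx1, at base 24 in Runx2 and at base -134 in Runx3. The expression values are per gene, so that transcripts from the distal and the proximal promoter cannot be told apart. Of the 9 factors, 7 had windows, and Maf and Ahr did not.

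**Figure D2:**
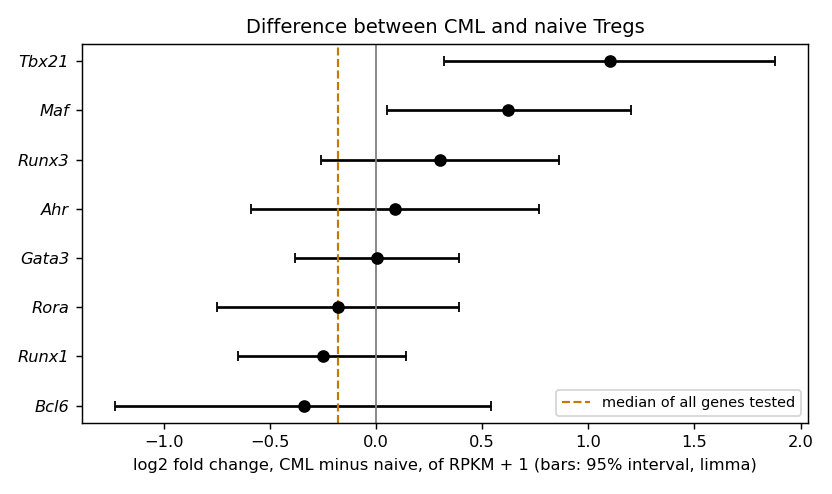
Log2 fold change of RPKM + 1, CML minus naive (horizontal axis), of the 8 factors that entered the test (vertical axis), with 95% intervals from limma as bars over 3 libraries for each group. The intervals of Tbx21 (0.32 to 1.88) and Maf (0.05 to 1.2) lie above 0 and the other 6 include it, and the dashed line marks the median of all genes tested, -0.18.

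Since RPKM is per length, the factors could be ranked by level within a group. In CML Tregs the mean levels ran from Gata3 (122 RPKM) through Maf (73.3), Rora (53.9), Runx1 (48.3), Runx3 (41.8), Tbx21 (19.7), Ahr (15) and Bcl6 (7.48) to Eomes (0.048 RPKM). The libraries of neighbours in this order overlapped from Maf to Runx3 and for Tbx21 and Ahr, and they were apart elsewhere. In naive Tregs the mean levels ran from Gata3 (120 RPKM) through Rora (59.4), Runx1 (57.8), Maf (47.2), Runx3 (33.2), Ahr (14.1), Bcl6 (9.63) and Tbx21 (8.98) to Eomes (0.93 RPKM). Here the neighbours Rora and Runx1, Runx1 and Maf, and Bcl6 and Tbx21 overlapped. Maf held place 2 in CML and 4 in naive Tregs, and Tbx21 places 6 and 8. Of the summed RPKM of the 9 factors, Tbx21 made up 4.69%, 5.17% and 5.73% in CML replicates 1, 2 and 3 and 1.77%, 2.49% and 3.32% in naive replicates 1, 2 and 3, while Gata3 made up 30.8% to 35.2% in the 6 libraries.

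Plain ratios of RPKM between factors of the same library, given here in percent, do not depend on how libraries were scaled to each other. The log2 ratios were taken of RPKM + 1 and keep some dependence where a factor is low. Tbx21 was at 14.0%, 16.5% and 18.6% of Gata3 in CML replicates 1, 2 and 3 and at 5.04%, 7.33% and 9.92% in naive replicates 1, 2 and 3. The groups did not overlap, and the mean log2 ratio was 1.09 higher in CML (exact permutation test, 2-sided, p = 0.1, adjusted p = 0.15 over 6 ratios). Relative to Foxp3, Tbx21 was at 4.28%, 5.82% and 5.08% in CML and at 2%, 2.34% and 3.56% in naive replicates 1, 2 and 3, which did not overlap either (log2 difference 0.88). Tbx21 to Bcl6 and Maf to Gata3 also did not overlap, with log2 differences of 1.44 and 0.62. Their gaps were narrow, between CML replicate 1 and naive replicate 3. These were at 193% and 170% for Tbx21 to Bcl6 and at 49.4% and 47.8% for Maf to Gata3. With 0.1 added in place of 1, the differences were 1.18 for Tbx21 to Gata3, 1.57 for Tbx21 to Bcl6 and 0.63 for Maf to Gata3. Maf to Foxp3 and Runx3 to Runx1 overlapped, with log2 differences of 0.41 and 0.55 (exact permutation test, p = 0.2 for each). No ratio of 3 libraries against 3 can reach a p below 0.1.

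The genes whose centred log2 profiles over the 6 libraries lay closest to that of Tbx21, among 7852 genes whose mean reached 10 RPKM, were Abcb1a, a drug efflux pump, Ifit1, an interferon-induced gene, and Pqlc3. Their mean absolute differences from the Tbx21 profile were 0.077, 0.079 and 0.120 on the log2 scale, compared with a median of 0.65 over all genes compared. Abcb1a was at 63.0 to 77.1 RPKM in CML and 25.8 to 44.5 RPKM in naive Tregs, and Ifit1 at 19.9 to 23.3 RPKM and 7.75 to 15.2 RPKM. Closest to Gata3 were Arid5a, Actn4 and Ubr2 with differences of 0.038, 0.043 and 0.044, compared with a median of 0.30. For both factors these were the smallest differences of all genes compared. They therefore lie below the median by selection, and whether they are smaller than such a search would give by chance was not tested.

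The genes of each helper program were then counted from hand-written lists, beside all genes tested, of which 2.61% were higher and 5.94% lower at the unadjusted threshold with a fold of at least 1.5. The lists were written with earlier results of these data known. Their counts are therefore not independent of the data and describe only the listed genes. Without CML replicate 2 these shares were 4.87% and 5.74%, against which the list counts without that library are to be read. Of the 22 genes of the type 1 program, 21 were tested, 8 passed this threshold as higher in CML and 1 as lower, and none passed the adjusted one. The median log2 fold change of the 21 was 0.55, compared with -0.18 for all genes. Without CML replicate 2, 10 were higher and 1 lower, in a fit where more of all genes were higher too. When the libraries were brought to the same distribution, 3 passed the adjusted threshold, as did 53 of all 13923 genes in that fit.

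The 8 higher type 1 genes included chemokines, receptors and granule genes. Gzmb, which encodes the cytotoxic protease granzyme B, was at 123, 112 and 178 RPKM in CML replicates 1, 2 and 3 and at 6.74, 15 and 31.2 RPKM in naive replicates 1, 2 and 3 (log2 fold change 3.10, SE 0.48, limma adjusted p = 0.0729). Every CML library was well above every naive library. The inflammatory chemokine Ccl4 was at 22.1, 25.9 and 47.0 RPKM in CML and 4.14, 2.86 and 4.78 RPKM in naive replicates 1, 2 and 3 (log2 fold change 2.68, SE 0.38, limma adjusted p = 0.0578). The related chemokine Ccl3 was at 27.3, 25.9 and 25.1 RPKM in CML and at 5.53, 0 and 0 RPKM in naive replicates 1, 2 and 3. The CML values of both chemokines in replicate 2 rested on 6 reads each. Ccl5 (log2 fold change 1.57), Nkg7, a granule membrane protein (1.36), the interferon-γ receptor chain Ifngr1 (0.93), Bhlhe40, a factor that works with T-bet (0.90), and Cxcr3 (0.68) completed the 8. The Nkg7 value of CML replicate 2 rested on 5 reads.

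Cxcr3, the chemokine receptor that T-bet induces in type 1 cells and in T-bet+ Tregs, was at 93.4, 81.9 and 98.3 RPKM in CML and at 49.1, 60.2 and 60.4 RPKM in naive replicates 1, 2 and 3. The groups were apart by more than the spread within either (SE 0.17, limma adjusted p = 0.271). The type 1 cytokine Ifng was at 17.7, 18.0 and 58.9 RPKM in CML and at 20.6, 21.4 and 19.1 RPKM in naive replicates 1, 2 and 3. Only CML replicate 3 was above the naive range, and the other CML libraries were below it (log2 fold change 0.38, SE 0.45, limma adjusted p = 0.79). The interleukin-12 receptor chain Il12rb2 (log2 fold change 0.55) and its signal transducer Stat4 (-0.17) overlapped between groups. Groups were separate for 9 genes of the list as higher and 3 as lower, compared with 4.84% and 12.2% of all genes. The lower ones were the interleukin-18 receptor chain Il18r1, at 64.8 to 87.8 RPKM in CML and 90.5 to 107 RPKM in naive Tregs (log2 fold change -0.37), the interleukin-27 receptor chain Il27ra, at 65.1 to 84.9 and 91.8 to 113 RPKM (-0.42), and Ifngr2. Ifngr2, the other chain of the interferon-γ receptor, was the gene of the list past the threshold as lower in CML, at 8.81 to 17.1 RPKM compared with 22.7 to 24.9 RPKM (log2 fold change -0.95, limma adjusted p = 0.369).

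**Figure D3:**
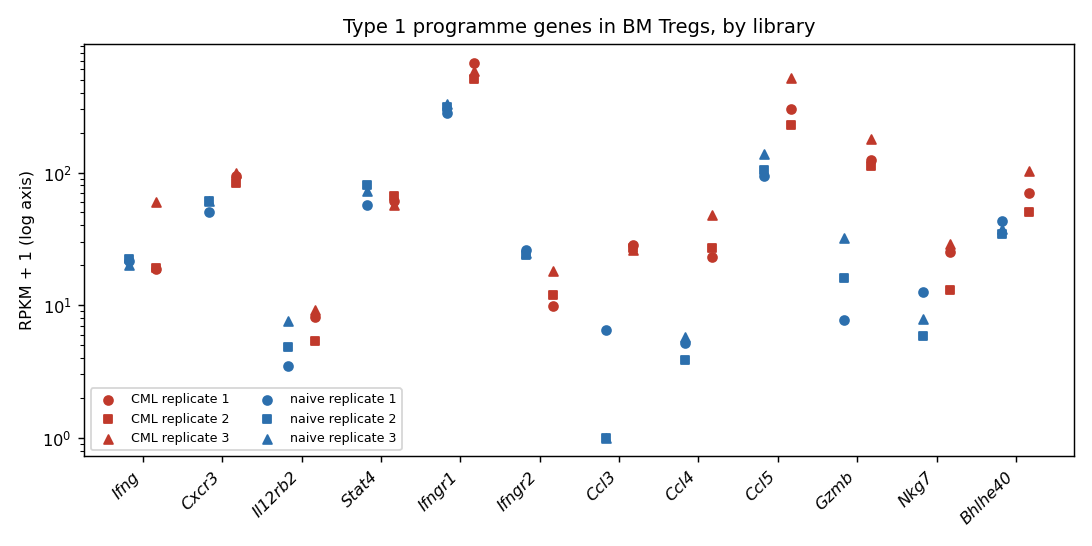
RPKM + 1 on a log axis (vertical) of 12 genes of the type 1 program (horizontal axis), with 1 point for each library. Gzmb, Ccl3, Ccl4, Ccl5, Ifngr1, Cxcr3, Bhlhe40 and Nkg7 show the CML libraries above the naive ones, Ifngr2 shows them below, and Ifng, Il12rb2 and Stat4 overlap.

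In the type 2 program, 12 of 18 genes were tested, 3 passed the unadjusted threshold as higher and 1 as lower, with a median log2 fold change of 0.26. Ccr8, a chemokine receptor of type 2 cells and of activated Tregs in tissues, rose from 7.99, 7.08 and 10.7 RPKM in naive to 40.4, 32.9 and 44.9 RPKM in CML replicates 1, 2 and 3 (log2 fold change 2.08, SE 0.27, limma adjusted p = 0.0416). It was the only gene of the 7 program lists past the adjusted threshold, and without CML replicate 2 no type 2 gene was, while 1 gene of the follicular list and 1 of the AHR list passed. Of all 14034 genes tested without that library, 26 passed. Cish, a feedback inhibitor of cytokine signals, was at 160 to 214 RPKM in CML and 75.8 to 98.4 RPKM in naive Tregs (log2 fold change 0.97), and Nfil3 had a log2 fold change of 1.6 with overlapping groups. Stat6, which transduces interleukin-4 signals upstream of Gata3, was lower, at 41.7 to 67.2 compared with 79.3 to 91.0 RPKM (log2 fold change -0.60, limma adjusted p = 0.439), and without CML replicate 2 it did not pass the unadjusted threshold. The type 2 cytokines Il4, Il5 and Il13 had no reads in any library. The receptors Il4ra (log2 fold change 0.10) and Il1rl1 (0.25), the latter the interleukin-33 receptor of tissue Tregs, overlapped between groups. Il10, a target of c-MAF, was at 28.4, 4.49 and 26.9 RPKM in CML and at 4.31, 7.01 and 4.96 RPKM in naive replicates 1, 2 and 3, with CML replicate 2, at 2 reads, inside the naive range (log2 fold change 1.38, limma adjusted p = 0.553).

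In the type 17 program, 11 of 18 genes were tested, with 1 higher and 1 lower at the unadjusted threshold and a median log2 fold change of 0.46. Without CML replicate 2, 5 were higher and 1 lower, beside the 4.87% and 5.74% of all genes in that fit. The cytokines Il17a, Il17f and Il22 had no reads in any library, Il23r was below 1.1 RPKM in all 6, and the chemokine receptor Ccr6 was at 15.2 to 17.4 RPKM in CML and 17.1 to 26.7 RPKM in naive Tregs. Hif1a, a hypoxia-response factor, was the higher gene (log2 fold change 0.63). Il6ra, the interleukin-6 receptor, was the lower one, at 30.2, 15.7 and 14.2 RPKM in CML and 65.4, 57.5 and 60.4 RPKM in naive replicates 1, 2 and 3 (log2 fold change -1.64, SE 0.30, limma adjusted p = 0.125). Stat3, which carries the interleukin-6 signal, had separate groups in the other direction (log2 fold change 0.48, limma adjusted p = 0.487), below the fold threshold.

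In the follicular helper program, 16 of 18 genes were tested, 4 were higher and 3 lower at the unadjusted threshold, and the median log2 fold change was 0.01. The higher genes were the inhibitory receptor Pdcd1, at 90.7, 40.3 and 96.4 RPKM in CML and 22.7, 16.7 and 20.1 RPKM in naive replicates 1, 2 and 3 (log2 fold change 1.79, limma adjusted p = 0.148), the activation-induced factor Egr2 (1.86), the costimulatory receptor Icos (0.64) and Slamf1 (0.77). The defining homing receptor Cxcr5 pointed the other way, at 1.64, 5.36 and 2.72 RPKM in CML and 5.83, 10.7 and 7.02 RPKM in naive replicates 1, 2 and 3 (log2 fold change -1.12, limma adjusted p = 0.518). The Cxcr5 values stood for 14, 5 and 7 reads in CML and for 34, 106 and 77 reads in naive replicates 1, 2 and 3. The lower genes were Il6ra, Sh2d1a and Cd84. Il21 had 34 reads in CML replicate 3 and none in the other 5 libraries.

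**Figure D4:**
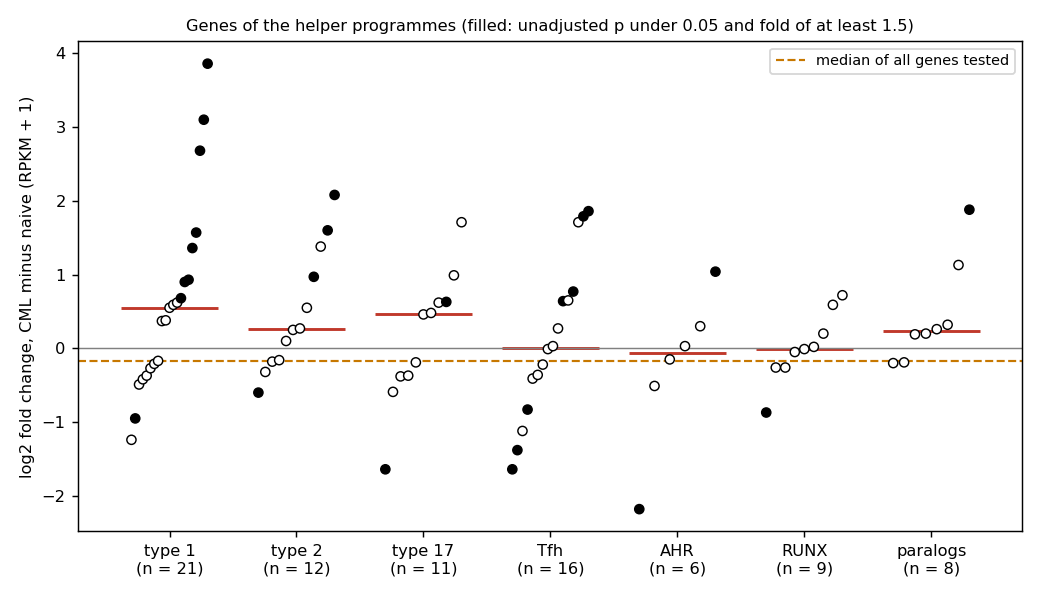
Log2 fold change of RPKM + 1, CML minus naive (vertical axis), of the tested genes in each of 7 program lists (horizontal axis, with the number tested). Points are genes, filled where the unadjusted p was under 0.05 with a fold of at least 1.5, red lines are list medians and the dashed line is the median of all genes tested. The type 1 list has 8 filled points above 0 and 1 below, and the follicular list 4 and 3.

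Of the 11 partners and targets of AHR, 6 were tested. The classic targets Cyp1a1 and Cyp1b1 had no reads in any library, the repressor Ahrr was listed above 0 only in naive replicate 3, at 0.231 RPKM, and the target Tiparp (log2 fold change 0.30) and the dimerization partner Arnt (-0.51) overlapped between groups. The 2 genes past the unadjusted threshold went in opposite directions. Gpr15, a homing receptor of colonic Tregs, was at 3.76, 6.68 and 3.63 RPKM in CML and at 25.4, 25.4 and 21.4 RPKM in naive replicates 1, 2 and 3 (log2 fold change -2.18, SE 0.34, limma adjusted p = 0.0729). Its values stood for 31, 6 and 9 reads in CML and for 143, 241 and 226 reads in naive replicates 1, 2 and 3. Entpd1, which encodes the ectonucleotidase CD39, was at 47.2, 42.2 and 65.2 RPKM in CML and at 17.1, 26.2 and 31.5 RPKM in naive replicates 1, 2 and 3 (log2 fold change 1.04, SE 0.29, limma adjusted p = 0.296).

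Of the 9 genes listed with the RUNX factors, 1 passed the unadjusted threshold, the chromatin organizer Satb1, as lower (log2 fold change -0.87, limma adjusted p = 0.433), and without CML replicate 2 the list had 1 higher and 0 lower. The common partner Cbfb was at 87.3 to 124 RPKM in CML and 103 to 110 RPKM in naive Tregs, and Runx2 at 60.3 to 90.3 and 44.3 to 97.4 RPKM. Zbtb7b, which encodes the CD4 lineage factor ThPOK, had separate groups at 64.9 to 69.9 and 77.4 to 81.9 RPKM, a log2 fold change of -0.26 that did not pass (limma adjusted p = 0.614). Cd4 was at 208 to 309 RPKM in all 6 libraries and Cd8a at 2.75 to 15.4 RPKM. Cd8b1, the other CD8 chain, was above Cd8a in every library, at 35.7 to 66.8 RPKM in CML and 23.4 to 52.2 RPKM in naive Tregs.

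Of 19 paralogs of the 9 factors, 8 were tested and 7 had no reads in any library. Gata2 passed the unadjusted threshold (log2 fold change 1.88, limma adjusted p = 0.401), at 2, 8.36 and 2.42 RPKM in CML and 0, 0.948 and 0 RPKM in naive replicates 1, 2 and 3. Without CML replicate 2 no paralog passed. Gata2 also marks stem and progenitor cells, basophils and mast cells. In the stem and progenitor list Ly6a, which activated T cells also express, was separate and higher (134 to 160 compared with 58.5 to 78.5 RPKM), as was Gata2, and Cd48 was separate and lower (87.3 to 112 compared with 114 to 130 RPKM). Hoxa9 and Mecom were at 0 in all libraries, the list's sum was 246 to 293 RPKM in CML and 196 to 218 RPKM in naive Tregs, and the part of such cells in the Gata2 values was not tested.

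Markers of other cells were read beside these results. The sum of 15 NK and type 1 innate cell markers was 277 to 353 RPKM in CML and 182 to 286 RPKM in naive Tregs. Of the 8 tested, 1 had separate groups, Gzmb, which is also on the type 1 list, and Klrc1, Klra8 and Klra4 were at 0 in all 6 libraries. Tyrobp was at 85.3 to 109 RPKM in CML and 107 to 190 RPKM in naive Tregs, and Fcer1g at 23.1 to 45.2 and 28 to 62.8 RPKM. Ncr1 was at 0, 0 and 4.56 RPKM and Klrd1 at 6.63, 18.7 and 0 RPKM in CML replicates 1, 2 and 3, compared with 0 to 0.238 and 5.13 to 15.7 RPKM in naive Tregs. The sum of the CD8 T cell markers was 70.0 to 79.0 RPKM in CML and 37.2 to 75.9 RPKM in naive Tregs, with no separate gene. Cd8b1 was the highest of them in all 6 libraries. B cell markers summed to 4.73 to 21.5 RPKM in CML and 11.5 to 20.7 RPKM in naive Tregs, with Cd79b at 0 to 8.79 and 7.96 to 8.42 RPKM, Mzb1 at 1.54 to 12.7 and 2.41 to 11.6 RPKM, no separate gene and Pax5 at 0 throughout. Erythroid markers summed to 41.8 to 251 RPKM in CML and 7.19 to 36.4 RPKM in naive Tregs, with Hbb-bs, Hbb-bt and Car2 separate, and neutrophil markers to 24.3 to 255 and 37.7 to 68.5 RPKM, with Elane separate and Ly6g at 0 throughout. The myeloid list (174 to 227 and 146 to 305 RPKM) had no separate gene and Fcgr1 at 0. Its highest member was Siglech, at 129 to 144 RPKM in CML and 91.9 to 222 RPKM in naive Tregs. Cd68 came next, at 23.5 to 47.4 and 26.1 to 46.6 RPKM. The list of type 2 innate, basophil and mast cells (73.9 to 100 and 60.0 to 73.0 RPKM) had Gata2 and Il17rb separate and Fcer1a at 0. Il1rl1 was highest there, at 51.1 to 86.7 and 46.1 to 68.1 RPKM. The part of these cells in the values of the 9 factors was not tested. Exons of the annotated antisense genes Gm13256, Gm15511, Gm48236 and Gm26626 lie over coding exons of Gata3, Rora, Ahr and Runx1, and since the library kit does not keep the strand, reads from each pair cannot be told apart.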

How the data were processed

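RNA from BM Tregs went through the SMART-Seq v4 kit and single-read sequencing. Assembly in SeqMan NGen and normalization in ArrayStar were done by the authors, and the submitters' processing notes name GRCm38 (mm10). RPKM was taken as the unit of the deposited values, which is not given in the sources used here. With GENCODE M21 coding lengths, 71.4% to 75.7% of values of up to 50 reads came within 0.05 of a whole number of reads, compared with 13.2% to 16.9% with transcript lengths and 10% by chance. Reads per library were estimated from the steps between small values. A value of 0.001 was set to 0, and 41 repeated feature names were kept as separate features. Reads came out whole for Tbx21, Bcl6, Ahr, Maf and Runx3.

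CML and naive libraries were compared with limma 3.58.1 (R 4.3.3) on log2(RPKM + 1), with a trended prior, for the 13923 features with a mean of at least 1 RPKM, and p-values were adjusted by Benjamini-Hochberg. A fold change on this scale understates the change of low genes. Log2 ratios of RPKM + 1 were compared by exact permutation tests over 20 assignments. The fit was tested on simulated data. Python 3.11.15 with pandas 2.3.3 and scipy 1.17.1 was used elsewhere. Groups and replicate numbers came from the labels, and each library was taken as 1 mouse.

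The members, gene lists, tests and alternatives were chosen with earlier results of these data known. Named genes were all 9 members, Foxp3, defining cytokine, receptor and partner genes, and in each list the genes past the adjusted threshold and the 3 largest changes at an unadjusted p under 0.05 with separate groups. Nkg7, Ccl5, Bhlhe40, Ifngr1, Ifngr2, Nfil3, Il10, Il17f, Il22, Il18r1, Il27ra, Slamf1, Sh2d1a, Cd84, Satb1 and Cd3e were named after their values were seen. Some genes that fall under this rule are not reported here. The fit on recovered reads (limma voom, genes with at least 10 reads), the fit without CML replicate 2 at the same sum, and the list counts without CML replicate 2 or under other scalings were added after the data were seen.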

Additional observations from a re-analysis of the deposited data

How the results depend on the processing

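Tbx21 stayed higher in CML in all 20 fits, with a log2 fold change of 0.86 to 1.34 and an adjusted p of 0.129 to 0.88, and Maf in all 20 with 0.45 to 0.81 and 0.262 to 0.894. The number of the 9 factors past the unadjusted threshold was 1 without a trended prior or with library weights and 1 to 2 with each library left out in turn. It was 3 without the filter on low values and 3 on recovered reads, where Eomes entered the fit and passed as lower. It was 1 without CML replicate 1 or 3 or naive replicate 1 or 2. The number of genes past the adjusted threshold, 24 in the reported fit, was 0 at a pseudocount of 0.001, 1 without the filter, 53 after quantile normalization, 53 at the same 75th percentile, 52 at the same sum, 11 without a trended prior, 45 with library weights, 38 at the same sum without CML replicate 2, 128 on recovered reads and 0 to 29 with each library left out in turn. The lowest of these were 0 without naive replicate 1 or 2, 3 without naive replicate 3 and 8 without CML replicate 3, and quantile normalization moved the median of all genes from -0.18 to -0.0068. No factor passed the adjusted threshold in any of the 20 fits.

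Factors near 0 changed sign. With each library left out in turn, Gata3 ranged from -0.11 to 0.10, Rora from -0.39 to 0.05 and Ahr from -0.04 to 0.25. Gata3 was -0.11, -0.0068 and -0.0098 without CML replicate 1, naive replicate 1 and naive replicate 2. Rora was 0.0078 with library weights, 0.05 without CML replicate 2, 0.04 without it at the same sum and 0.0067 on recovered reads. Ahr was -0.06 with library weights, -0.04 without CML replicate 2, -0.0052 without naive replicate 1, -0.05 without CML replicate 2 at the same sum and -0.03 on recovered reads. The cause was not tested. Eomes on recovered reads had a log2 fold change of -2.38 (limma voom, adjusted p = 0.378).

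The replicate numbers gave no sign of pairing, since the deviations of same-numbered libraries correlated at -0.019 to -0.002. With the replicate block, 1 gene passed the adjusted threshold and 2 factors the unadjusted one.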
